A study of Mus musculus with 5 samples.

Results

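A set of 10 genes for mechanosensitive ion channels were followed in the right hemisphere of tumor-bearing mice after ultrasound-mediated blood-brain barrier opening (UMBO). They were Piezo1, Piezo2, Trpv2, Trpv4, Trpc1, Trpm7, Pkd2, Kcnk2, Kcnk4 and Tmem63b, chosen because their channels respond to membrane stretch or to ultrasound, and all 10 were found by mouse symbol among the 55573 genes of the deposited count tables. All mice were female C57BL/6, inoculated at 7 to 8 weeks of age in the right caudate nucleus-putamen with GL261 glioma cells that carry a luciferase and mKate2 vector. On days 21 and 24 the vehicle group received inVivoPure dilution buffer, and the UMBO group received low-intensity pulsed ultrasound with intravenous microbubbles. Whether vehicle mice were sonicated without microbubbles or given microbubbles alone is not given in the sources used here. RNA was taken 24 h after the last session from the mice, and libraries of 3 vehicle and 2 UMBO mice, 1 per mouse, were analysed. The study's methods name more mice for this experiment than these 5, and any other library was not analysed here. GL261 is a single syngeneic cell line, and each library mixed tumor, brain, vessel and immune RNA from a whole hemisphere.

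Mechanically gated channels open when force reaches them through the lipid membrane or through proteins tied to it. Piezo channels and most stretch-responsive TRP channels pass cations, calcium among them, and excite the cell, whereas the TREK and TRAAK channels encoded by Kcnk2 and Kcnk4 pass potassium out and quiet it. In the brain, Piezo1 is known from endothelial cells and microglia, Kcnk2 and Kcnk4 from neurons, and Trpv4 from astrocytes and the choroid plexus. A channel already in the membrane can respond to ultrasound without any change in its messenger RNA, so the counts describe how much transcript was present 24 h later and not channel activity.

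Libraries held 59736771 to 86164159 counts each, and every channel gene was counted at least 244 times in each library. Counting error was small beside the spread between mice, except for Piezo2 among the vehicle mice, at 297 to 330 counts. With edgeR (quasi-likelihood), 0 of the 23592 genes tested reached an adjusted p under 0.05 (0%), with 1738 at an unadjusted p under 0.05 (7.37%), and the DESeq2 Wald test called 39. UMBO replicate 2 stood apart from the rest: the chi-square per gene against the other libraries was 270 to 651, while the other pairs lay between 52.2 and 116. Since 3 libraries against 2 allow only 10 groupings, an exact permutation test cannot give a p below 0.1. The fold changes of the channel genes and the medians of the gene lists are therefore given with and without UMBO replicate 2.

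Of the 10 channel genes, Piezo1 exceeded all vehicle values in both UMBO mice, and the potassium channel genes Kcnk2 and Kcnk4 were below them in both. These 3 of 10 genes compare with 22.9% of all genes tested whose groups did not overlap, 11.5% above and 11.4% below, so the share of channel genes was near that background. By edgeR, Piezo1 and Kcnk4 were the members with an unadjusted p under 0.05, 1 gene higher (5.3% of all genes) and 1 lower (2.06%). None of the 10 passed after adjustment, with the smallest adjusted p at 0.497. Across the 10 genes, 4 had a positive and 6 a negative log2 fold change, with a median of -0.26 beside 0.012 for all genes tested. Without UMBO replicate 2 that median was -0.033, and without UMBO replicate 1 it was -0.49.

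**Figure D1:**
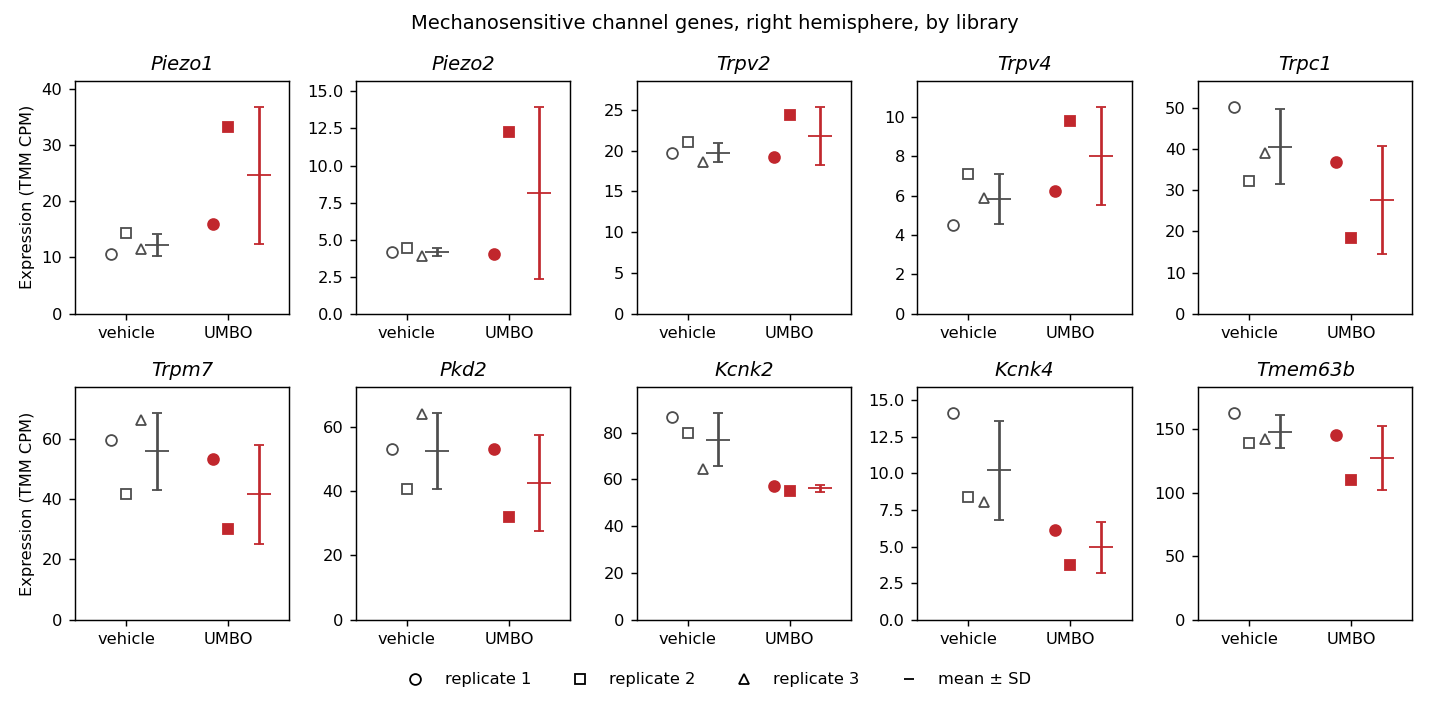
Expression of each channel gene in TMM-normalized CPM (vertical axis, from 0) in 3 vehicle libraries (open symbols) and 2 UMBO libraries (filled symbols); the marker shape gives the replicate number and the bars give the mean ± SD. Piezo1 lay above and Kcnk2 and Kcnk4 below every vehicle library in both UMBO libraries, and in the other 7 genes UMBO replicate 1 lay within the vehicle range.

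The windows upstream of the start sites are shown for the 3 genes whose groups did not overlap. Each is the stretch of 250 bases before an annotated start (RefSeq, GRCm38.p6), written 5′ to 3′ on the gene's strand in lower case, with matches to searched motifs in capitals. They lie at chr8:122551330-122551579 on the reverse strand for Piezo1, chr19:6934516-6934765 on the reverse strand for Kcnk4 and chr1:189402274-189402523 on the reverse strand for the most distal of 4 Kcnk2 starts.
Piezo1: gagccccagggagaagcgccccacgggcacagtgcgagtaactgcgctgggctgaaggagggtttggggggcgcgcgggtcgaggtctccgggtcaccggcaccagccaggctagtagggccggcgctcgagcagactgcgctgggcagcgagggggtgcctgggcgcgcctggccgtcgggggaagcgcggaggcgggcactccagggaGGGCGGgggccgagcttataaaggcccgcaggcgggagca
Kcnk4: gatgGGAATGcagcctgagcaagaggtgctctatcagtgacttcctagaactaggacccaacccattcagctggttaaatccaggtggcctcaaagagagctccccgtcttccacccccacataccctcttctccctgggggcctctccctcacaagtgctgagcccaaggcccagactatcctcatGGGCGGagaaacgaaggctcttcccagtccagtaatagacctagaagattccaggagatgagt
Kcnk2: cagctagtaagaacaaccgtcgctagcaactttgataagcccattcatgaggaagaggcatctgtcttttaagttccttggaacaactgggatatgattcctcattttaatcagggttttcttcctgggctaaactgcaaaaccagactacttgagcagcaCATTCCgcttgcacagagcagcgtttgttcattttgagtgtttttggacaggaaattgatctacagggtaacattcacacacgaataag
Motifs searched on both strands were the GC box GGGCGG, the TEAD motif GGAATG, the AP-1 motif TGANTCA, the cyclic AMP response element TGACGTCA and the REST motif TTCAGCACC, and the marked matches do not overlap each other. The Piezo1 window held 1 GC box and was 74.0% G and C, against a median of 52.4% over 32851 promoter windows. The Kcnk4 window held 1 TEAD motif and 1 GC box at 54.8% G and C, and the distal Kcnk2 window held 1 TEAD motif at 42.4%. The other Kcnk2 windows, not shown, were at 53.2%, 74.4% and 70.4% without a TEAD motif, and the one at 74.4% held 1 GC box.

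Among all promoter windows 32.7% held a GC box and 12.6% a TEAD motif. The promoter table matched 9 of the 10 channel genes with 14 windows, leaving Piezo2. A GC box was found for 6 of these 9 genes (Piezo1, Trpv4, Trpc1, Kcnk2, Kcnk4 and Tmem63b) and a TEAD motif for 4 (Kcnk2, Kcnk4, Pkd2 and Trpv2). Counted by window, these were 6 and 4 of 14. The AP-1 motif, present in 6.75% of all windows, was found in 1 of the other Kcnk2 windows. No channel gene window held the cyclic AMP response element (1.55% of all windows) or the REST motif (0.301%).

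The Piezo genes encode large pore proteins that sense stretch and shear, Piezo1 being the form of vessels and blood cells and Piezo2 that of touch and proprioception. Piezo1 (ENSMUSG00000014444, GRCm38 chromosome 8, 122481698 to 122551329, reverse strand) was at 10.6, 14.4 and 11.5 CPM (read counts relative to library size, scaled by edgeR's TMM factors) in vehicle replicates 1 to 3. It was at 16.0 CPM in UMBO replicate 1 and 33.2 CPM in UMBO replicate 2. Both UMBO libraries were thus the highest of the 5, the first by a small margin over vehicle replicate 2 and the other far above it.

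The mean of Piezo1 was 12.2 ± 1.99 CPM (SD, n = 3) with vehicle and 24.6 ± 12.2 CPM (SD, n = 2) after UMBO. The log2 fold change by edgeR was 1.02 ± 0.339 (standard error), its unadjusted p 0.0241 and its adjusted p 0.497. UMBO replicate 2 set most of that size: the log2 fold change was 0.40 without it and 1.42 without UMBO replicate 1. The unadjusted p was above 0.05 without UMBO replicate 2 (0.177), without vehicle replicate 1 (0.0797) and without vehicle replicate 3 (0.0749). Exons of Piezo1 overlap those of Ctu2 on the opposite strand over 2441 bases, 24.6% of its exonic length. Whether the counting used strand is not given in the sources used here, so reads of that stretch cannot be assigned. Ctu2 itself was at 11.8 to 14.6 CPM in the vehicle libraries, with UMBO replicate 1 inside that range and UMBO replicate 2 above it at 21.1 CPM.

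Piezo2 (chromosome 18) was high in 1 mouse alone. Vehicle mice had 4.16, 4.41 and 3.90 CPM, UMBO replicate 1 had 4.06 CPM and UMBO replicate 2 had 12.3 CPM. That library was at 2.95 times the vehicle mean, while UMBO replicate 1 was at 0.977 times that mean. The vehicle libraries were close together, with a coefficient of variation of 6.12% for Piezo2 against 16.4% for Piezo1. At 297 to 330 counts per vehicle library, counting error is not small beside that 6.12%. The log2 fold change of Piezo2 was 0.97 (standard error 0.464, edgeR adjusted p 0.497), and -0.031 without UMBO replicate 2.

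The summed markers of several cell types were higher in both UMBO libraries, as Piezo1 was, whereas Piezo2 was higher in UMBO replicate 2 alone. Of 10 endothelial markers, 5 were above every vehicle library in both UMBO libraries (11.5% of all genes tested), and the summed level of the list was 209 to 292 CPM with vehicle and 360 to 386 CPM with UMBO. Slco1a4 and Tek were instead lowest in UMBO replicate 2, at 25.1 and 9.50 CPM. Of 8 mural markers, 1 was above and 1 below every vehicle library in both UMBO libraries (11.5% and 11.4% of all genes tested). Their sums were 166 to 226 CPM with vehicle, 245 CPM in UMBO replicate 1 and 162 CPM in UMBO replicate 2. Of 8 microglial markers, 6 were above, with sums of 324 to 456 CPM with vehicle and 610 to 733 CPM with UMBO. Only 1 of 8 monocyte and macrophage markers was above, near the share of all genes, with sums of 22.0 to 120 CPM and 84.6 to 435 CPM. All 5 fibroblast markers were above, with sums of 73.1 to 114 CPM and 192 to 227 CPM. Of 10 proliferation markers, 8 were above, with sums of 36.9 to 108 CPM and 118 to 470 CPM. Of 5 erythroid markers, 3 were above, with sums of 71.8 to 165 CPM and 181 to 217 CPM. No defining marker of these lists was at 0 in any library. Their part in the Piezo values was not tested, and in bulk tissue more cells of a type cannot be told apart from more transcript per cell.

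**Figure D2:**
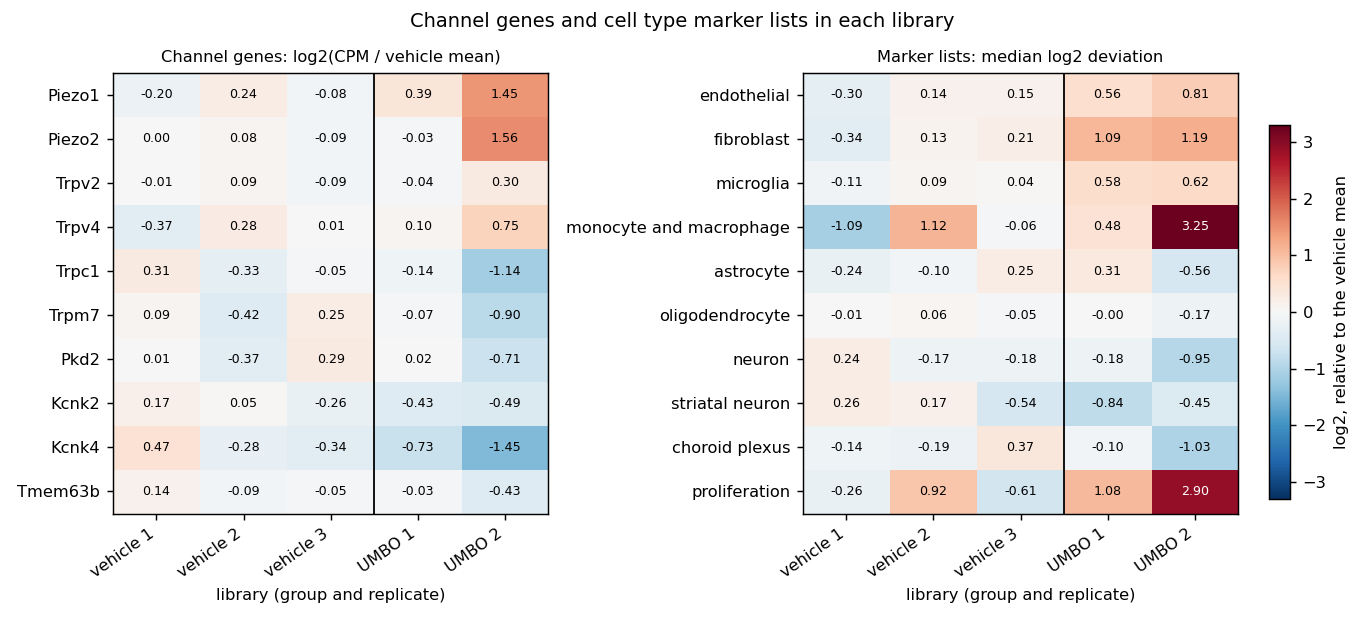
Left, log2 of each channel gene's CPM over its vehicle mean in each library; right, the median log2 deviation from the vehicle mean over a selection of the lists of cell type markers (red higher, blue lower, 1 column per library). UMBO replicate 2 was the highest or lowest library for all 10 channel genes, with Piezo2 at 1.56 and Kcnk4 at -1.45, and also had the highest monocyte and macrophage markers (3.25) and the lowest neuron markers (-0.95).

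Among the TRP family genes, Trpv2 and Trpv4 were higher and Trpc1, Trpm7 and Pkd2 lower in UMBO replicate 2 than in every other library, and UMBO replicate 1 lay inside the vehicle range for all 5. Trpv2, a calcium-permeable channel of macrophages and neurons, was at 19.7, 21.0 and 18.6 CPM with vehicle and at 19.3 and 24.3 CPM with UMBO. Trpv4, an osmotic and stretch sensor of astrocytes and choroid plexus, was at 4.51, 7.08 and 5.88 CPM with vehicle and at 6.24 and 9.77 CPM with UMBO. Their log2 fold changes were 0.14 (standard error 0.186) and 0.46 (standard error 0.319). Without UMBO replicate 2 these were -0.035 and 0.10. The choroid plexus markers went the other way in UMBO replicate 2: their summed level was 816 to 849 CPM with vehicle, 863 CPM in UMBO replicate 1 and 498 CPM in UMBO replicate 2. Of these 8 markers, 2 were below every vehicle library in both UMBO libraries (11.4% of all genes tested). The 7 astrocyte markers summed to 2910 to 4305 CPM with vehicle, 3915 CPM in UMBO replicate 1 and 1689 CPM in UMBO replicate 2. In both UMBO libraries 2 of them were above and 0 below every vehicle library (11.5% and 11.4% of all genes tested). The part of these cell types in the Trpv4 values was not tested.

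Trpc1 encodes a cation channel subunit that joins other TRPC proteins. It was at 50.3, 32.4 and 39.2 CPM with vehicle and at 37.0 and 18.4 CPM with UMBO, so that only UMBO replicate 2 lay outside the vehicle range. Trpm7, a channel fused to a kinase that carries magnesium and zinc, was at 59.5, 41.7 and 66.3 CPM with vehicle and at 53.3 and 30.0 CPM with UMBO. Pkd2, which encodes the polycystin-2 channel of the primary cilium, was at 53.0, 40.6 and 64.1 CPM with vehicle and at 53.2 and 32.0 CPM with UMBO. Trpm7 and Pkd2 had the same order of the 3 vehicle libraries, and their ratio per length varied from 0.841 to 1.01 over the 5 libraries. The log2 fold changes were -0.55 (standard error 0.349) for Trpc1, -0.42 (standard error 0.321) for Trpm7 and -0.30 (standard error 0.298) for Pkd2. Without UMBO replicate 2 they were -0.13, -0.065 and 0.019. The adjusted p over all genes from edgeR ranged from 0.497 to 0.685 for the 5 TRP genes.

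For both potassium channel genes, as for Piezo1, UMBO replicate 1 lay outside the vehicle range along with UMBO replicate 2. Kcnk2, the gene of TREK-1 (ENSMUSG00000037624, GRCm38 chromosome 1, 189207930 to 189402273, reverse strand), was at 86.7, 79.7 and 64.4 CPM with vehicle. It was at 57.3 and 55.0 CPM with UMBO, so that both UMBO mice were nearly alike and below all vehicle mice. The mean was 76.9 ± 11.4 CPM (SD, n = 3) with vehicle and 56.1 ± 1.63 CPM (SD, n = 2) with UMBO. The log2 fold change by edgeR was -0.46 ± 0.191 (standard error), its unadjusted p 0.0546 and its adjusted p 0.497. This size ranged from -0.57 to -0.36 when single libraries were omitted, and was -0.42 without UMBO replicate 2. Among those fits the unadjusted p was under 0.05 only without vehicle replicate 3 (0.0454).

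Kcnk4, the gene of TRAAK (ENSMUSG00000024957, GRCm38 chromosome 19, 6923966 to 6934515, reverse strand), was at 14.1, 8.41 and 8.07 CPM with vehicle and at 6.15 and 3.73 CPM with UMBO. Both UMBO libraries were below the vehicle libraries, among which vehicle replicate 1 was high. The mean was 10.2 ± 3.40 CPM (SD, n = 3) with vehicle and 4.94 ± 1.72 CPM (SD, n = 2) with UMBO. The log2 fold change by edgeR was -1.04 ± 0.382 (standard error), its unadjusted p 0.0339 and its adjusted p 0.497. It was -0.72 without UMBO replicate 2 (unadjusted p 0.104) and -0.74 without vehicle replicate 1 (unadjusted p 0.104), so the unadjusted p passed 0.05 only with both of these libraries kept.

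Each potassium channel gene shares exonic bases with a neighbor. Kcnk4 overlaps Catsperz on the same strand over 587 bases (13.1% of its exonic length), and Kcnk2 overlaps the antisense gene A430027H14Rik over 604 bases (12.2%). Both neighbors had low counts, at most 2.36 CPM for Catsperz and 2.33 CPM for A430027H14Rik in any library, and for both the UMBO values were below all vehicle values.

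Neuronal markers were lower beside the potassium channel genes. Of 8 general neuron markers, 4 were below every vehicle library in both UMBO libraries (11.4% of all genes tested), with summed levels of 5241 to 8067 CPM with vehicle, 5464 CPM in UMBO replicate 1 and 2601 CPM in UMBO replicate 2. In UMBO replicate 1 that sum was within the vehicle range while Kcnk2 and Kcnk4 were below theirs. Of 6 markers of striatal projection neurons, 4 were below every vehicle library in both UMBO libraries, with sums of 487 to 866 CPM with vehicle and 403 to 564 CPM with UMBO. For this list UMBO replicate 1 was the lowest library. No neuronal or striatal marker was at 0 in any library, and the part of cell composition in the potassium channel values was not tested.

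Tmem63b encodes a member of the OSCA and TMEM63 family of stretch- and osmotically gated channels. It was at 163, 139 and 143 CPM with vehicle and at 145 and 110 CPM with UMBO, so that UMBO replicate 1 lay between the vehicle libraries. The log2 fold change was -0.22 (standard error 0.210, edgeR adjusted p 0.590), and -0.028 without UMBO replicate 2. On the opposite strand its exons overlap Gm16172 over 288 bases (5.65%) and Mrpl14 over 106 bases (2.08%).

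**Figure D3:**
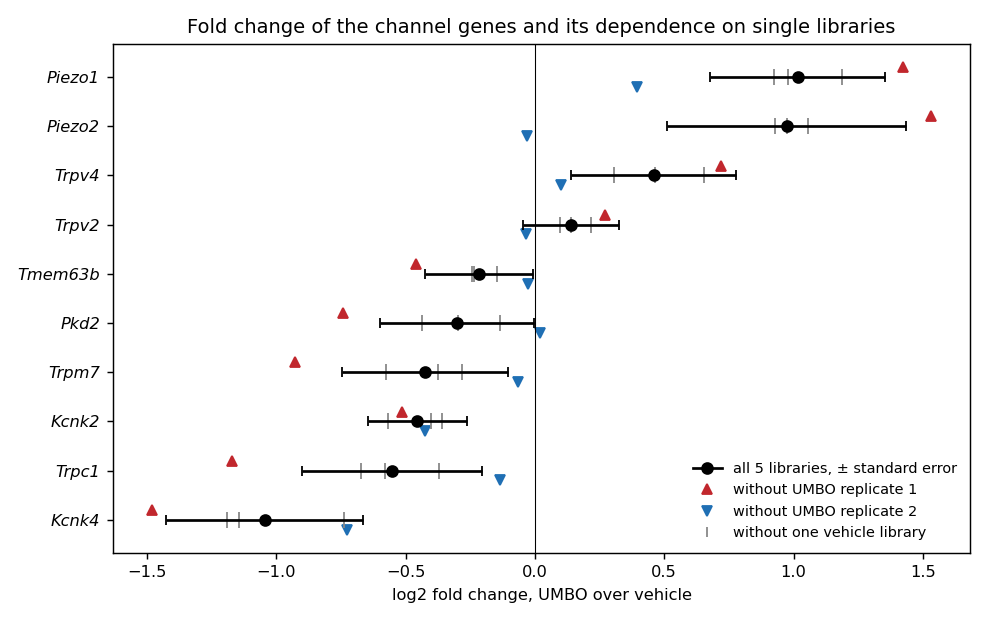
Log2 fold change of UMBO over vehicle (horizontal axis) for each channel gene from edgeR with all 5 libraries (black, ± standard error) and with single libraries left out. Leaving out UMBO replicate 2 placed 8 of the 10 genes between -0.13 and 0.40, the highest being Piezo1, with Kcnk2 at -0.42 and Kcnk4 at -0.72.

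UMBO replicate 2 was the highest or the lowest of the 5 libraries for all 10 channel genes, as it was for 80.2% of all genes tested. UMBO replicate 1 was inside the range of the vehicle libraries for 7 of the 10, against 63.4% of all genes. Both shares were near those of the whole table.

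Levels of different genes were compared as TMM CPM per kilobase of exonic length. Tmem63b was highest, at 27.4 ± 3.75 CPM per kb (SD over the 5 libraries), followed by Kcnk2 at 13.9 ± 2.83. Both were clear of their neighbors, since the lowest Tmem63b value (21.5) exceeded the highest Kcnk2 value (17.5) and the lowest Kcnk2 value (11.1) exceeded the highest value of the next gene (6.30). A middle group of Pkd2 (4.78 ± 1.22), Trpv2 (4.59 ± 0.506), Trpm7 (4.43 ± 1.28) and Trpc1 (4.42 ± 1.44) could not be ordered, because their ranges overlapped. Kcnk4 (1.81 ± 0.862), Piezo1 (1.73 ± 0.931) and Trpv4 (1.64 ± 0.479) also overlapped each other, and the highest Kcnk4 value overlapped the lowest Trpc1 value. Piezo2 was the lowest at 0.335 ± 0.212 CPM per kb, and its highest value (0.714) stayed below the lowest Trpv4 value (1.11). In all, 6 of the 9 neighboring pairs overlapped.

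**Figure D4:**
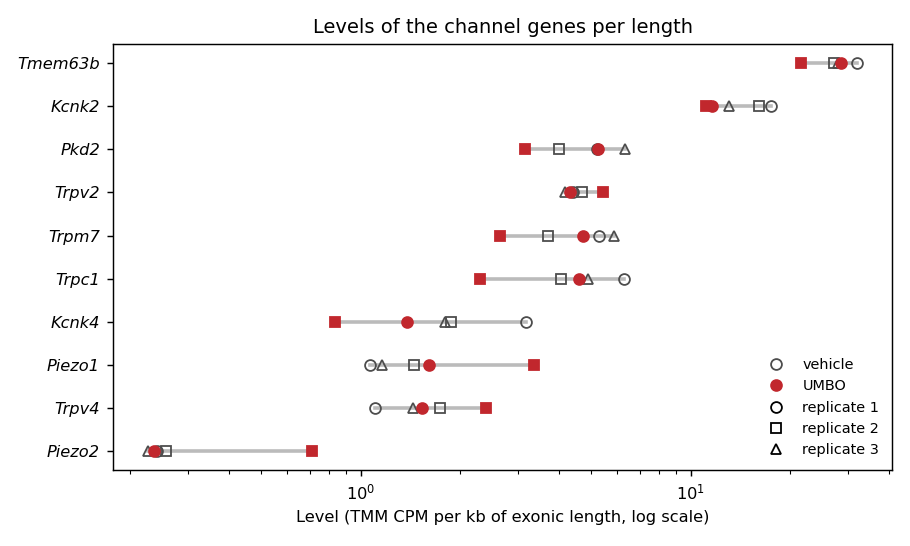
Level of each channel gene in TMM CPM per kilobase of exonic length (horizontal log axis) in the vehicle (open) and UMBO (filled) libraries, ordered by the mean; grey lines span the range. Tmem63b and Kcnk2 lay above the other genes without overlap and Piezo2 below them.

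Ratios within a library do not depend on how libraries are scaled. The Piezo1 to Kcnk4 ratio of levels per kb was 0.337, 0.770 and 0.642 for vehicle mice, then 1.17 and 4.01 for UMBO replicates 1 and 2. Piezo1 was thus below Kcnk4 in every vehicle mouse and above it in both UMBO mice. Relative to Kcnk2, Piezo1 was at 0.0607, 0.0899 and 0.0891 with vehicle and at 0.139 and 0.301 with UMBO. These pairs were chosen after the values of the single genes were seen, so the ratios describe the libraries and carry no test. Piezo1 and Piezo2 kept a ratio between 4.39 and 6.81 over the 5 libraries, with the groups overlapping. The share of the Piezo genes in the summed level of the 10 genes was 1.72% to 2.62% with vehicle, 2.90% in UMBO replicate 1 and 7.59% in UMBO replicate 2, while Tmem63b held 40.3% to 44.7% in every library.

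Other genes of the pathway were read from lists grouped by function, and 0 of their members passed after adjustment in edgeR. Of 22 other channels reported to respond to stretch, swelling or touch, 21 had enough counts to test, and Tmc2, counted at most 3 times in a library, did not. At an unadjusted p under 0.05, 0 were higher and 2 lower with UMBO (5.3% and 2.06% of all genes), and the groups did not overlap for 2 above and 5 below (11.5% and 11.4% of all genes). Their median log2 fold change was -0.44, and -0.17 without UMBO replicate 2. Asic1, an acid-sensing sodium channel, was at 80.6, 77.5 and 87.4 CPM with vehicle and at 69.2 and 48.5 CPM with UMBO. Trpa1 was near the limit of detection, at 0.227, 0.282 and 0.425 CPM with vehicle and 0.152 and 0.0458 CPM with UMBO.

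Of 14 partners of these channels, 4 were higher and 1 lower at an unadjusted p under 0.05 (5.3% and 2.06% of all genes), with a median log2 fold change of 0.062 (0.038 without UMBO replicate 2). Cav1, the coat protein of caveolae, was at 11.9, 13.6 and 16.5 CPM with vehicle and at 29.7 and 23.4 CPM with UMBO, with UMBO replicate 1 the higher of the pair. Its log2 fold change was 0.92 (standard error 0.221, edgeR p 0.00590 before and 0.497 after adjustment). Mdfi, whose protein family binds Piezo channels, was at 0.361, 1.02 and 0.543 CPM with vehicle and at 1.22 and 2.64 CPM with UMBO. Homer1, a synaptic scaffold that links TRPC channels to calcium stores, was at 190, 125 and 120 CPM with vehicle and at 97.7 and 68.8 CPM with UMBO. Cav1 is an endothelial gene as well, and the endothelial marker values given with the Piezo genes apply to it.

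YAP and TAZ carry mechanical signals to the nucleus, where they act with TEAD factors. Of 8 genes of this pathway, 1 was higher and 0 lower at an unadjusted p under 0.05 (5.3% and 2.06% of all genes), and 3 lay above every vehicle library in both UMBO libraries (11.5%). Tead4 was at 0.495, 0.742 and 0.661 CPM with vehicle and at 0.924 and 1.57 CPM with UMBO. Yap1 was at 27.3, 34.3 and 33.6 CPM with vehicle and at 37.0 and 50.2 CPM with UMBO. Tead2 was at 3.73, 7.98 and 3.60 CPM with vehicle and at 6.53 and 20.2 CPM with UMBO, so its groups overlapped. The log2 fold changes of the 8 had a median of 0.35 (0.33 without UMBO replicate 2).

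Of 22 target genes of YAP and TAZ, 1 was higher and 0 lower at an unadjusted p under 0.05, 4 lay above and 3 below every vehicle library, beside 5.3%, 2.06%, 11.5% and 11.4% of all genes, and the median log2 fold change was 0.30 (0.16 without UMBO replicate 2). Ccdc80, a secreted matrix protein gene, was at 9.37, 9.55 and 9.08 CPM with vehicle and at 12.1 and 14.9 CPM with UMBO. Axl, a receptor tyrosine kinase also made by microglia, was at 51.5, 102 and 68.2 CPM with vehicle and at 92.0 and 171 CPM with UMBO. Asap1, a regulator of the actin cytoskeleton, went the other way, at 170, 105 and 116 CPM with vehicle and at 90.7 and 74.3 CPM with UMBO.

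Endothelial genes known to respond to blood flow all had positive log2 fold changes. In 4 of the 5 the UMBO values exceeded all vehicle values (11.5% of all genes), 3 had an unadjusted p under 0.05 (5.3% of all genes were higher at that p), and the median log2 fold change was 0.70 (0.40 without UMBO replicate 2). Edn1, which encodes the vasoconstrictor endothelin-1, was at 1.79, 2.02 and 2.40 CPM with vehicle and at 3.43 and 5.48 CPM with UMBO (log2 fold change 1.10, standard error 0.326). Klf2, a transcription factor induced by laminar shear, was at 6.04, 12.8 and 8.01 CPM with vehicle and at 13.6 and 21.6 CPM with UMBO. Nos3, the endothelial nitric oxide synthase gene, was at 7.11, 10.4 and 9.47 CPM with vehicle and at 11.7 and 17.5 CPM with UMBO. The endothelial markers were higher in sum in the same libraries, and their part in these values was not tested.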

How the data were processed

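Bulk RNA-seq libraries from the right hemisphere of 3 vehicle and 2 UMBO mice were used, and any other mouse of the experiment was not analysed here, with group and replicate read from the sample titles. The authors aligned reads to GRCm38 using STAR 2.7.2a, per their processing notes, and deposited raw gene-level counts under Ensembl identifiers, 1 table per library, without normalization. The annotation release and strand setting are not given in the sources used here. Symbols matched 55394 of 55573 identifiers in GENCODE M21, which also gave positions and exonic lengths, and sequences are from RefSeq. Counts were filtered with filterByExpr, normalized by TMM and tested with edgeR 4.0.16 (R 4.3.3; quasi-likelihood test, Benjamini-Hochberg adjustment over 23592 genes, threshold 0.05). The fit was first run on simulated data, where a pass was required only at a dispersion below the common value of these data (0.118). The channel genes and all lists were chosen with earlier results of these data known. Named genes were the 10 channel genes and, per pathway list, the 3 with the smallest p, of which 1 is not reported here. Median deviations of marker lists used log2 CPM with a prior count of 2. Alternatives were other scalings and filters, the replicate number as a block, DESeq2 1.42.0 and each library left out. All library pairs differed by more than sampling noise.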

Additional observations from a re-analysis of the deposited data

How the results depend on the processing

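With 5 mice, the spread between mice more than depth limits most of these comparisons, and UMBO replicate 2 decides most sizes. Counting error also matters for Piezo2 among the vehicle mice and for genes near the limit of detection, such as Trpa1. The number of genes past an adjusted p of 0.05 was 0 in edgeR and stayed 0 with both other scalings and both other filters, but was 39 with the DESeq2 Wald test. Channel genes past an unadjusted p of 0.05 numbered 2 (7.37% of all genes tested), and 3 with no filter (10.1%), where Piezo2 was added. The median of the channel genes went from -0.26 to -0.15 with scaling to library totals alone, and that of all genes from 0.012 to 0.13. Leaving out single libraries, the number of genes past an adjusted p of 0.05 ranged from 0 to 4543 (18.3% of genes tested, without UMBO replicate 1), channel genes past an unadjusted p of 0.05 from 0 (without vehicle replicate 1 or UMBO replicate 2) to 6 (without UMBO replicate 1), and channel genes without overlap from 3 to 10 (6 without vehicle replicate 2, 10 without UMBO replicate 1, where a lone UMBO library is compared). The median log2 fold change of the channel genes ranged from -0.49 to -0.033. Without UMBO replicate 1 the lone UMBO library is assumed to vary like the vehicle group. The log2 fold changes were then 1.42 for Piezo1, 1.53 for Piezo2 and -1.17 for Trpc1. Without UMBO replicate 2 the sign turned for Piezo2 (-0.031), Trpv2 (-0.035) and Pkd2 (0.019), none of them past the threshold, and over all omissions these ranged up to 1.53, up to 0.27 and down to -0.74. The cause was not tested. Beyond these, no log2 fold change of a channel gene changed sign under any of the 11 alternatives.

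With the replicate block, 2337 genes passed an adjusted p of 0.05 in edgeR (9.91% of genes tested). An unadjusted p of 0.05 was passed by 5 channel genes and by 26.0% of all genes tested. Kcnk4 (log2 fold change -1.19, adjusted p 0.00815) and Piezo1 (0.90, adjusted p 0.0177) passed after adjustment. Vehicle replicate 3 has no UMBO partner in this fit, so the group effect rests on 2 assumed pairs, with little left to estimate the spread. The labels tie no number to a litter or treatment day, the groups have only 2 numbers in common, and the deviations of same-numbered libraries correlated at 0.453 and 0.760. Deviations were taken from group means, so those of the 2 UMBO libraries are opposites and the 2 correlations are not independent. Both are positive, but they do not establish that the numbers pair the mice. The number of overlapping neighbors in the order of levels (6 of 9) was within 1.5 times under both alternatives.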
